A study of Mus musculus with 32 samples.

Results

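Cathepsins are the main proteases of the lysosome, and the 10 described here (Ctsk, Ctsf, Ctsa, Ctsb, Ctsc, Ctsd, Ctsh, Ctsl, Ctss and Ctsz) were taken by gene symbol from a table of 45706 genes, in which 23 symbols name a cathepsin. The family was chosen by the log2 fold changes of these same libraries, above all the lower level of Ctsk with the miR-29a mimic under vehicle, so that difference, and every other comparison of Ctsk that uses its VEH scramble or VEH miR-29a libraries, is given as a description without a test. The material was BV-2, an immortalised mouse microglial line that the labels call glioblastoma, transfected with a scramble control mimic or with a mimic of one of the microRNAs miR-7a-5p, miR-146a-5p and miR-29a-3p. Each was combined with vehicle (VEH) or with LPS, a bacterial cell wall component, at 10 ng/ml for 24 h, which gave 8 groups of 4 libraries. All cells were wild type, and the labels and the methods differ on whether LPS came before or after the transfection. The study refers to its replicates as independent experiments in 1 line, so the spread below is that between experiments and not between animals.

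Most cathepsins are cysteine proteases, here Ctsb, Ctsc, Ctsf, Ctsh, Ctsk, Ctsl, Ctss and Ctsz, while Ctsd is an aspartic protease and Ctsa a serine carboxypeptidase that also shields β-galactosidase and neuraminidase in a complex. They are made as inactive precursors, carried to the lysosome largely by mannose 6-phosphate receptors and activated in its acid interior, and cystatins hold back the cysteine members. In microglia they digest phagocytosed material, and Ctss also trims the invariant chain of MHC class II. A microRNA lowers mRNAs that pair with its seed, bases 2 to 8, most often through sites in the 3′ UTR.

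The mature sequences of the 3 microRNAs, from RefSeq on GRCm38.p6, are shown because their seeds define the sites looked for in the cathepsin mRNAs. The capitals mark the seed, and the 3 seeds differ from each other. miR-7a-5p is encoded at chr7:78888295-78888317 (plus strand) and chr13:58392841-58392863 (minus strand), miR-29a-3p at chr6:31062673-31062694 (minus strand) and miR-146a-5p at chr11:43374435-43374456 (minus strand).
miR-7a-5p: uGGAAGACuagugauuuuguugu
miR-29a-3p: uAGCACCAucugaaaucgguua
miR-146a-5p: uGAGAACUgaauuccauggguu

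Sites were searched in 1 principal GENCODE M21 transcript of each gene, as the match to bases 2 to 8 (TGGTGCT for miR-29a, GTCTTCC for miR-7a, AGTTCTC for miR-146a), alone or followed by A, or the match to bases 2 to 7 followed by A. Ctsk held an 8-base match for miR-7a and a 7-base match for miR-29a within a 3′ UTR of 440 bases. Ctsf held 1 match for miR-29a in 453 bases of 3′ UTR. Ctsl, with an annotated 3′ UTR of 4761 bases, held 3 matches for miR-29a and 2 for miR-7a, and Ctsb, with 3594 bases, held 3 for miR-7a and 3 for miR-146a. Ctsa, Ctsc, Ctsd, Ctsh, Ctss and Ctsz held 0 matches for the 3 mimics. Thus 3, 3 and 1 of 10 members had a site for miR-7a, for miR-29a and for miR-146a, against 24.1%, 17.8% and 18.8% of 10903 expressed genes, whose median 3′ UTR was 1022 bases. A match is a description of letters and was not tested as a binding site. The sites of Ctsk and Ctsf, the members with the widest range between groups, are printed on the coding strand with the match in capitals, and both genes lie on the plus strand.
Ctsk, miR-29a, chr3:95509062-95509068: tcctctcgtTGGTGCTtccagtgac
Ctsk, miR-7a, chr3:95509250-95509257: aacatttcaGTCTTCCActgagatgc
Ctsf, miR-29a, chr19:4860812-4860818: tttttgcttTGGTGCTcctcggtct

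The deposited values were estimated counts that had lost their decimal marks, and restored library totals ranged from 1.18 M to 20.5 M, where M is 1000000. In 3 of 4 libraries of VEH miR-7a, structural RNAs (small nuclear, nucleolar and related classes) took 35.7 to 39.3% of the counts, against 2.65 to 19.4% in the other 29 libraries, and these 3 stand apart wherever VEH miR-7a is used. Levels are given as CPM (counts per 1000000) scaled by trimmed mean of M-values (TMM) factors. Of 13 microglia and macrophage markers 11 averaged 1 CPM or more, and C1qa and Cx3cr1 did not. The 15 markers of astrocytes, neurons and fibroblasts all averaged below 1 CPM.

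The 10 genes differed widely in level. Per length of exon, VEH scramble cells were led by Ctsz (992 ± 192 CPM per kb, SD, n = 4) and Ctsd (982 ± 156), which ranked 34 and 38 among 21519 protein-coding genes. Ctsa followed at 700 ± 152, Ctsb at 506 ± 144 and Ctss at 501 ± 112 CPM per kb, and the ranges of these 5 neighbours overlapped in that order. Ctsl lay at 177 ± 33.2 CPM per kb and Ctsh at 86.2 ± 16.8, each apart from its neighbours. Ctsf (44.5 ± 3.56), Ctsc (34.5 ± 8.53) and Ctsk (31.9 ± 1.08) were lowest, with Ctsk ranked 1306. Under LPS the same 5 genes led, and Ctsf moved from rank 911 to rank 2423, below Ctsk.

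**Figure D1:**
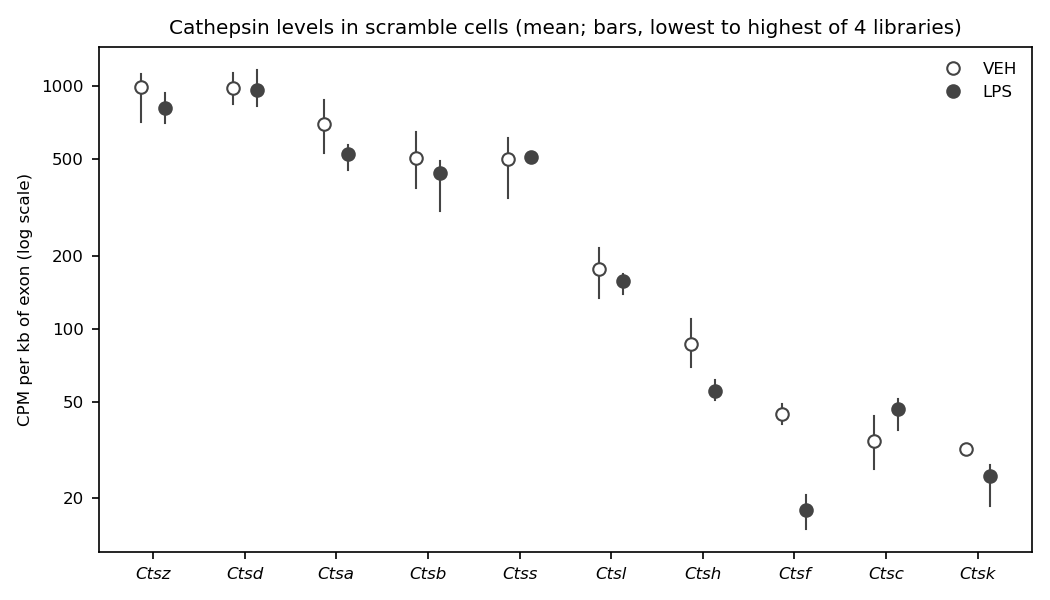
Level of each cathepsin gene in scramble cells, as CPM per kb of exon on a log axis, under VEH (open) and LPS (filled). Points are means of 4 libraries and bars run from the lowest to the highest library; Ctsf is the gene whose VEH and LPS bars lie farthest apart.

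Together the 10 genes took 1.28 ± 0.242% of the normalized counts in VEH scramble cells (SD, n = 4) and 1.09 ± 0.104% in LPS scramble cells. The group means ran from 0.892 ± 0.131% in LPS miR-29a to 1.34 ± 0.196% in VEH miR-146a. The VEH and LPS scramble libraries overlapped in this share. Between its highest and lowest group Ctsk ranged 6.80-fold and Ctsf 6.59-fold, Ctsh 2.83-fold, Ctsa 2.27-fold and Ctss 2.16-fold, while the other 5 genes ranged 1.38- to 1.78-fold.

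**Figure D2:**
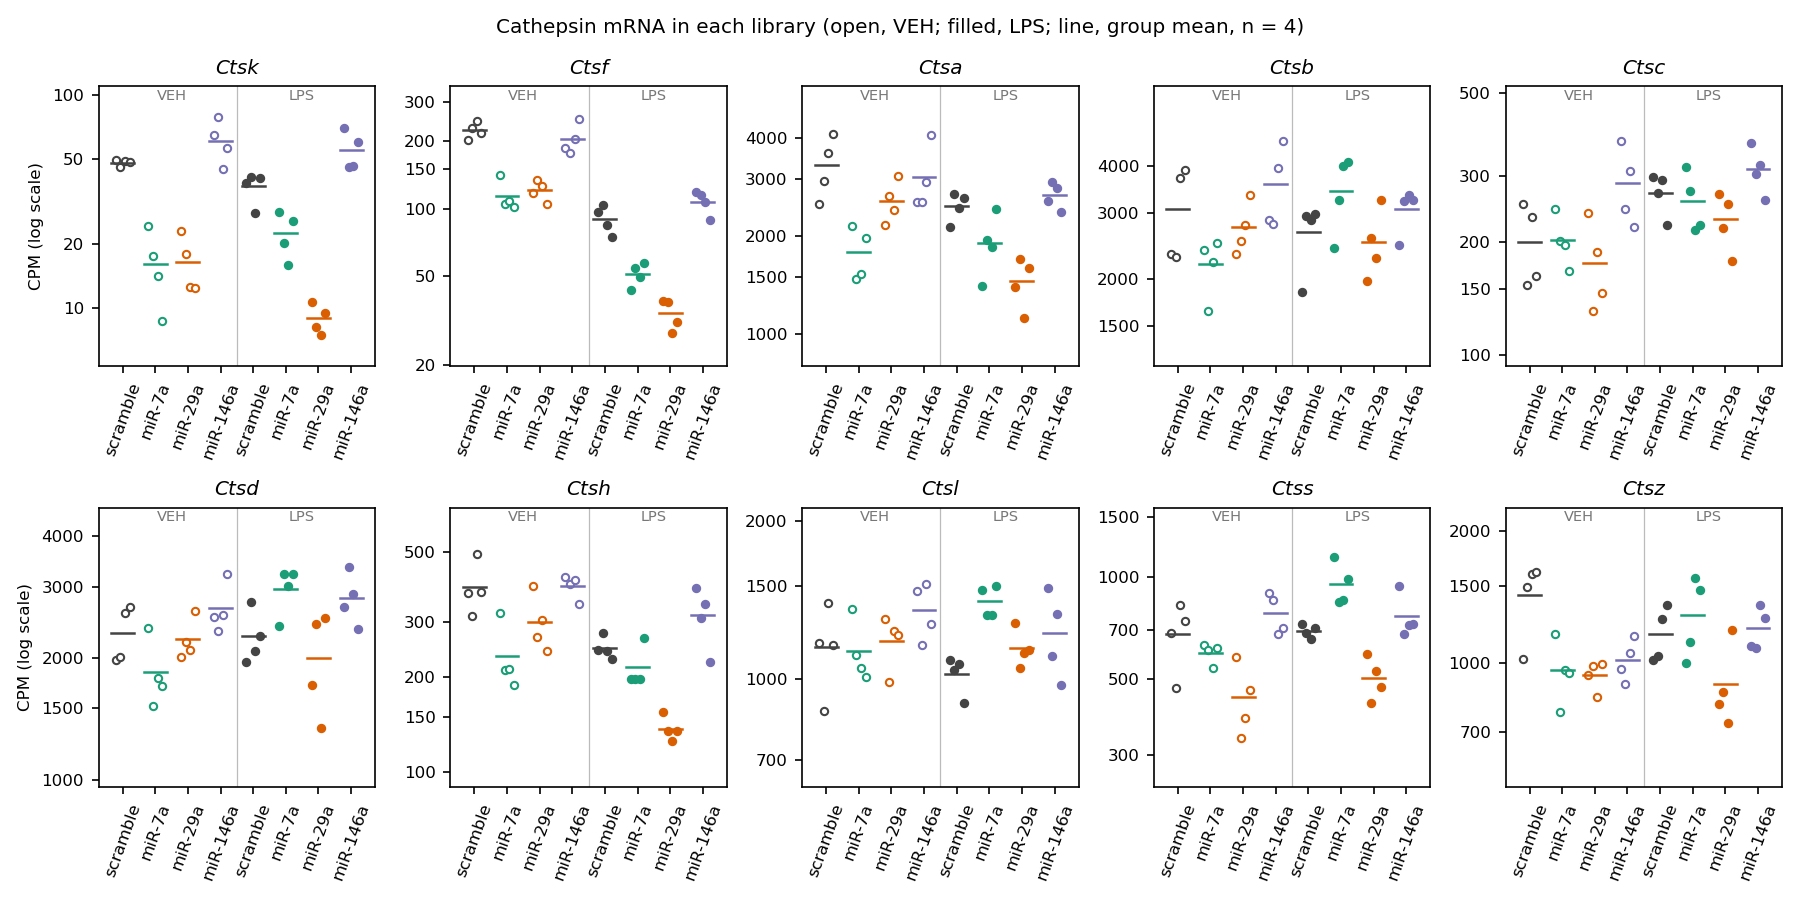
CPM of each cathepsin gene in every library, on a log axis that differs between panels, for the 4 mimics under VEH (open, left) and LPS (filled, right). Lines are group means, n = 4; the lowest Ctsk, Ctsf, Ctsa and Ctsh means are those of LPS miR-29a cells, at 9.0, 34.1, 1454 and 138 CPM.

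The first comparison asked how the genes responded to LPS in scramble cells. Ctsf, a cysteine protease whose precursor carries a cystatin-like domain, and Ctsh, an aminopeptidase, were downregulated, and no member was upregulated. Calls needed an adjusted p under 0.05 and a log2 fold change beyond 0.3, and 17.4% of 11933 genes tested passed them, 7.79% as lower. So 2 of the 9 members other than Ctsk passed, a share near that of all genes. The median log2 fold change of these 9 was -0.19, against 0.03 for all genes.

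Ctsf measured 203, 230, 246 and 219 CPM in the 4 VEH scramble libraries. In the LPS scramble libraries it measured 96.9, 104, 84.8 and 74.9 CPM. The groups did not overlap, and the log2 fold change was -1.31 ± 0.15 (SE, limma adjusted p = 0.000163). Ctsh measured 371, 313, 494 and 374 CPM under VEH and 245, 276, 242 and 229 CPM under LPS, again without overlap (-0.62 ± 0.16, adjusted p = 0.0218). The call of Ctsh depended on single libraries: it was kept in 3 of 8 fits that left out 1 library and lost without LPS replicate 1, 3 or 4 or VEH replicate 3 or 4, with adjusted p up to 0.0794. Without VEH replicate 1, 5 members passed, Ctsa, Ctsf, Ctsh and Ctsz lower and Ctsc higher.

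Ctsc, which activates the serine proteases of immune granules, had a log2 fold change of 0.48 ± 0.19 that missed the threshold (adjusted p = 0.104). With the replicate number as a block it passed, at 0.47 (adjusted p = 0.0299), as the only member that the pairing of experiments added among 23.3% of genes called. Ctsa gave -0.39 (adjusted p = 0.156). Ctsk, at 45.8 to 49.5 CPM under VEH and 28.1 to 41.3 CPM under LPS, had a log2 fold change of -0.38, given without a test. Ctsb, Ctsd, Ctsl, Ctss and Ctsz had log2 fold changes between -0.28 and 0.08, with 95% intervals reaching from -0.70 to 0.47. The summed level of the microglia and macrophage markers was 4268 to 5671 CPM in VEH scramble and 3895 to 4685 CPM in LPS scramble libraries, and its part in these differences was not tested. In bulk RNA, fewer cells of a kind and less RNA per cell cannot be told apart.

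In cells with a miRNA mimic, Ctsf fell with LPS each time. In miR-29a cells it measured 118, 134, 126 and 105 CPM under VEH and 38.8, 38.4, 27.9 and 31.3 CPM under LPS (log2 fold change -1.84 ± 0.15, limma adjusted p = 8.15e-06). In miR-7a cells it measured 141, 105, 108 and 102 CPM under VEH and 43.6, 54.5, 49.5 and 57.5 CPM under LPS (-1.28 ± 0.15, adjusted p = 0.0004). In miR-146a cells it measured 187, 178, 205 and 253 CPM under VEH and 119, 116, 107 and 88.6 CPM under LPS (-0.91 ± 0.14, adjusted p = 0.00229). In none of the 4 transfections did the VEH and LPS libraries overlap, and the Ctsf call was kept in 8 of 8 fits without 1 library in each. In miR-146a cells Ctsf was the single member called, where 4.56% of genes passed.

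In miR-29a cells LPS lowered Ctsf, Ctsh and Ctsa, 3 of the 9 members other than Ctsk, where 26.5% of all genes passed and 13.6% passed as lower. Ctsh measured 389, 268, 303 and 242 CPM under VEH and 155, 135, 126 and 135 CPM under LPS (-1.11 ± 0.15, adjusted p = 0.000357). Ctsa measured 2171, 2651, 2412 and 3068 CPM under VEH and 1398, 1698, 1121 and 1600 CPM under LPS (-0.82 ± 0.17, adjusted p = 0.00363). For both genes every LPS library was below every VEH library. Ctsk, the collagen-degrading protease of osteoclasts, was at 23, 18, 12.6 and 12.4 CPM under VEH and at 10.7, 8.19, 7.53 and 9.55 CPM under LPS, a log2 fold change of -0.81 given without a test. The summed level of the microglia and macrophage markers was also lower without overlap, at 4142 to 4492 CPM under VEH and 3100 to 3771 CPM under LPS, and its part in these falls was not tested. With the replicate block Ctsc passed too, at 0.40 (adjusted p = 0.0113), where 37.2% of genes were called.

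In miR-7a cells LPS raised Ctsd and Ctss besides lowering Ctsf, where 6% of all genes passed, 3.18% as higher and 2.83% as lower. Ctsd, the major aspartic protease of the lysosome, measured 2364, 1518, 1788 and 1703 CPM under VEH and 2398, 3225, 3014 and 3221 CPM under LPS (0.58 ± 0.14, limma adjusted p = 0.0324). Ctss measured 630, 609, 539 and 616 CPM under VEH and 1143, 841, 852 and 988 CPM under LPS (0.56 ± 0.14, adjusted p = 0.0284). For both genes every LPS library lay above every VEH library. For Ctsd the margin was small in replicate 1, whose VEH library was low in structural RNA, at 2364 CPM under VEH and 2398 CPM under LPS. Each of these 2 calls was kept in 2 of 8 fits without 1 library, with adjusted p up to 0.12 and 0.11: Ctsd lost it without replicate 2, 3 or 4 of either group, and Ctss without LPS replicate 3 or 4 or any VEH replicate. With structural RNAs left out, the log2 fold change of Ctss was 0.47 and missed the threshold (adjusted p = 0.0532). With limma-trend both calls were lost (adjusted p = 0.0985 for Ctsd and 0.0577 for Ctss).

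**Figure D3:**
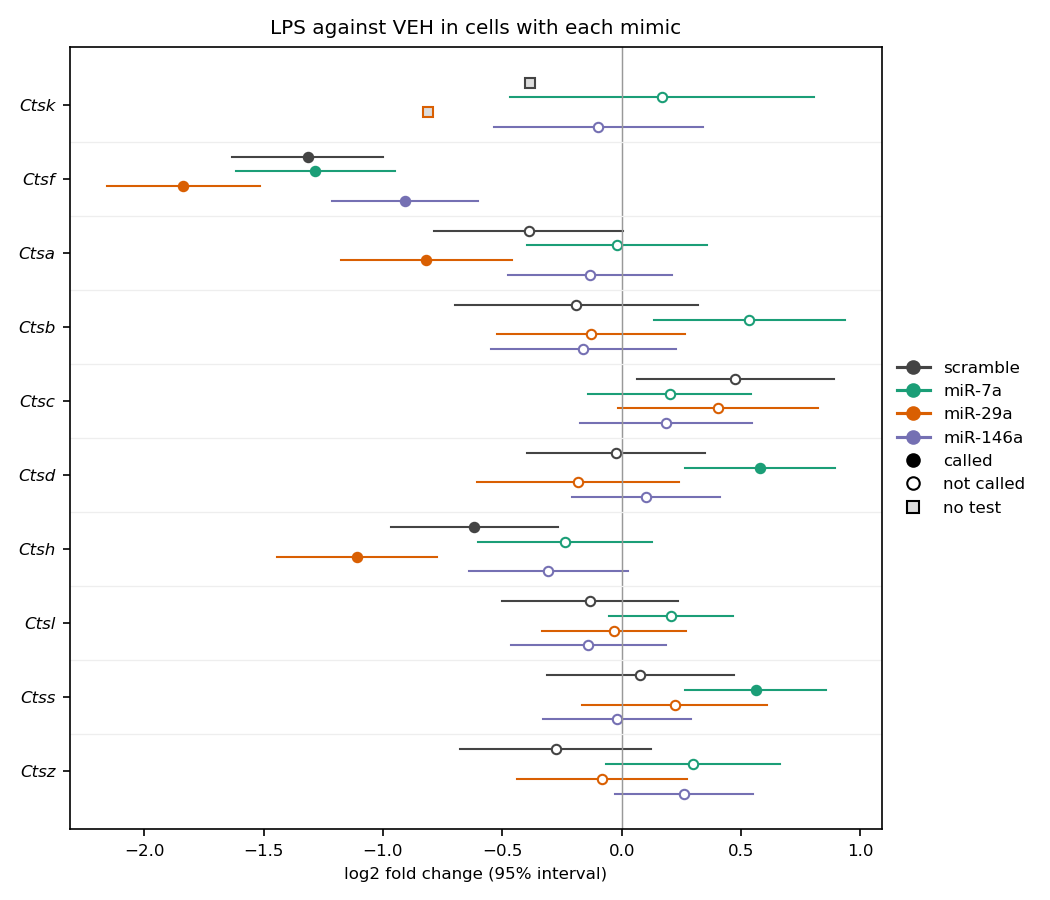
Log2 fold change of LPS against VEH for each cathepsin gene in cells with each mimic, with 95% intervals from limma; filled points were called, and grey squares, Ctsk in scramble and miR-29a cells, are shown without a test. Ctsf lies left of 0 in the 4 transfections, from -0.91 to -1.84, while Ctsb, Ctsd, Ctss and Ctsz are spread around 0.

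The study asked what the 3 mimics change in resting and in LPS-treated cells. The 3 mimic groups of a condition share the same 4 scramble libraries, so their differences from scramble are not independent of each other. Under VEH, Ctsk was the only gene of 11376 (0.00879%) that passed with miR-29a, which is how it came to be chosen. It measured 49.5, 45.8, 49.0 and 48.5 CPM in scramble and 23, 18, 12.6 and 12.4 CPM in miR-29a libraries, a log2 fold change of -1.62 ± 0.21 given without a test, and the call itself was kept in 1 of 8 fits without 1 library. At that contrast the median over the 9 members other than Ctsk was -0.31 and over all genes 0.03. It is a description, since fold changes of these libraries chose the family.

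Ctsf was also lower with miR-29a under VEH, at 118, 134, 126 and 105 CPM against 203 to 246 CPM in scramble. The groups did not overlap, but the log2 fold change of -0.87 ± 0.15 missed the threshold (limma adjusted p = 0.107). With the replicate block it passed (-0.86, adjusted p = 0.0206), when 0.782% of genes were called. Ctss was at 583, 337, 383 and 465 CPM against 683, 470, 827 and 740 CPM in scramble (-0.59, 95% interval -1.06 to -0.12, adjusted p = 0.376), and the groups overlapped. For Ctsz, also without overlap, the log2 fold change was -0.55 (adjusted p = 0.32), and for Ctsa, Ctsb, Ctsc, Ctsd, Ctsh and Ctsl it lay between -0.34 and 0.09.

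Under LPS, miR-29a downregulated Ctsk, Ctsf, Ctsh and Ctsa, 4 of 10 members, where 4.58% of all genes passed and 2.63% passed as lower. None was upregulated, and the median log2 fold change was -0.39 for the members against 0.00 for all genes. Ctsk measured 38.7, 41.3, 28.1 and 41.0 CPM in scramble and 10.7, 8.19, 7.53 and 9.55 CPM in miR-29a libraries. The highest miR-29a library was below the lowest scramble library (-2.05 ± 0.18, limma adjusted p = 0.000323). Ctsk had its lowest mean of the 8 groups here, 9.0 ± 1.43 CPM (SD, n = 4).

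Ctsf measured 96.9, 104, 84.8 and 74.9 CPM in LPS scramble and 38.8, 38.4, 27.9 and 31.3 CPM in LPS miR-29a libraries (-1.38 ± 0.15, adjusted p = 0.00122). Ctsh measured 245, 276, 242 and 229 CPM against 155, 135, 126 and 135 CPM (-0.82 ± 0.11, adjusted p = 0.00419). Ctsa measured 2133, 2691, 2439 and 2628 CPM against 1398, 1698, 1121 and 1600 CPM (-0.73 ± 0.15, adjusted p = 0.0207). In these 3 genes, too, the groups did not overlap, and Ctsh and Ctsa are members in which no miR-29a match was found. The calls of Ctsk, Ctsf and Ctsh were kept in 8 of 8 fits without 1 library, and that of Ctsa in 3 of 8, being lost without miR-29a replicate 1 or 3 or scramble replicate 2, 3 or 4 (adjusted p up to 0.0842).

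Ctss measured 729, 685, 657 and 706 CPM in LPS scramble and 592, 424, 530 and 475 CPM in LPS miR-29a libraries. The groups did not overlap, and -0.44 ± 0.13 missed the threshold (limma adjusted p = 0.0775). With the replicate block Ctss (-0.44, adjusted p = 0.00979) and Ctsz (-0.36, adjusted p = 0.0355) joined the other 4, where 10.2% of genes were called. Ctsl, which held 3 matches for miR-29a, had a log2 fold change of 0.19 (95% interval -0.07 to 0.45, adjusted p = 0.392), so a fall like that of Ctsk lay outside its interval. Ctsb, Ctsc and Ctsd lay between -0.22 and -0.02. The summed level of the microglia and macrophage markers moved the same way, from 3895 to 4685 CPM in LPS scramble to 3100 to 3771 CPM in LPS miR-29a libraries, and its part in the lower cathepsin levels was not tested.

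With miR-7a under VEH 0 of the 9 members other than Ctsk passed in limma-voom, and of all genes 0.0551% did. At an unadjusted p under 0.05 there were 4 of these, all lower, beside 1315 of 10881 genes, and limma-trend called 0. Ctsk measured 24.4, 17.6, 14.2 and 8.70 CPM against 45.8 to 49.5 CPM in scramble, a log2 fold change of -1.31 given without a test. Ctsf measured 141, 105, 108 and 102 CPM against 203 to 246 CPM, without overlap (-0.83 ± 0.16, limma adjusted p = 0.0635). It passed without VEH miR-7a replicate 1, the library low in structural RNA (adjusted p = 0.0212), and without scramble replicate 1 (adjusted p = 0.0476). Ctsa, at 2157, 1473, 1529 and 1973 CPM against 2505, 2962, 3598 and 4135 CPM in scramble, did not overlap either (-0.74 ± 0.19, adjusted p = 0.165). The summed microglia and macrophage markers were lower without overlap here too, at 3191 to 3992 CPM against 4268 to 5671 CPM in scramble, and their part in these differences was not tested.

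With miR-7a under LPS, Ctsf passed, where 2.74% of all genes did. It measured 43.6, 54.5, 49.5 and 57.5 CPM against 74.9 to 104 CPM in scramble, without overlap (-0.80 ± 0.14, limma adjusted p = 0.0159), and the call was lost without miR-7a replicate 3 (adjusted p = 0.0606). Ctsk, with its 8-base match for miR-7a, measured 28.2, 20.2, 16.0 and 25.6 CPM against 28.1 to 41.3 CPM, so 1 library reached into the scramble range (-0.76 ± 0.20, adjusted p = 0.0624). Ctsl was higher, at 1478, 1320, 1324 and 1505 CPM against 1085, 1038, 1066 and 899 CPM in scramble. For Ctsl, too, the groups did not overlap (0.46 ± 0.11, adjusted p = 0.0573). Ctss measured 1143, 841, 852 and 988 CPM against 657 to 729 CPM, without overlap (0.45 ± 0.13, adjusted p = 0.0831).

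Same-numbered LPS libraries of miR-7a and scramble deviated together, and with that pairing as a block 7 members passed, where 9.38% of genes were called, 4.46% as higher and 4.91% as lower. Ctsk (-0.77, limma adjusted p = 0.00243), Ctsf (-0.78, adjusted p = 0.00185) and Ctsa (-0.40, adjusted p = 0.0128) were lower. Ctsl (0.46, adjusted p = 0.00533), Ctss (0.45, adjusted p = 0.0048), Ctsd (0.39, adjusted p = 0.0102) and Ctsb (0.36, adjusted p = 0.0153) were higher. Ctsb held 3 matches for miR-7a and Ctsl 2. Ctsc, Ctsh and Ctsz did not pass in either fit, with unblocked log2 fold changes of -0.09, -0.22 and 0.13.

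miR-146a gave 0 calls among the members under VEH, Ctsk left aside, and among all 10 under LPS, where 1.47% and 2.31% of all genes passed. In each condition 2 members had an unadjusted limma-voom p under 0.05, and limma-trend called 0. Among all genes 2841 of 11461 under VEH and 2090 of 12330 under LPS were under that cut. Under LPS the 10 log2 fold changes were all above 0, with a median of 0.23 against -0.04 for all genes. The highest was that of Ctsk, at 69.7, 45.8, 46.3 and 60.2 CPM with miR-146a against 28.1 to 41.3 CPM in scramble. The groups did not overlap (0.55 ± 0.18, limma adjusted p = 0.145), and with the replicate block Ctsk (0.52, adjusted p = 0.0339) and Ctsd (0.31, adjusted p = 0.043) passed, where 9.8% of genes were called. Under VEH Ctsk measured 64.8, 78.8, 45.0 and 56.4 CPM, a log2 fold change of 0.31 from scramble given without a test. Ctsz had the lowest log2 fold change under VEH, -0.46 (limma adjusted p = 0.146), and passed without scramble replicate 1. Ctsc had the highest, 0.53 ± 0.21 (adjusted p = 0.156), at 373, 245, 310 and 219 CPM against 252, 154, 233 and 163 CPM in scramble, and the groups overlapped. Ctsb, the member with 3 matches for miR-146a, had log2 fold changes of 0.24 under VEH (95% interval -0.28 to 0.75) and 0.24 under LPS (-0.15 to 0.64).

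**Figure D4:**
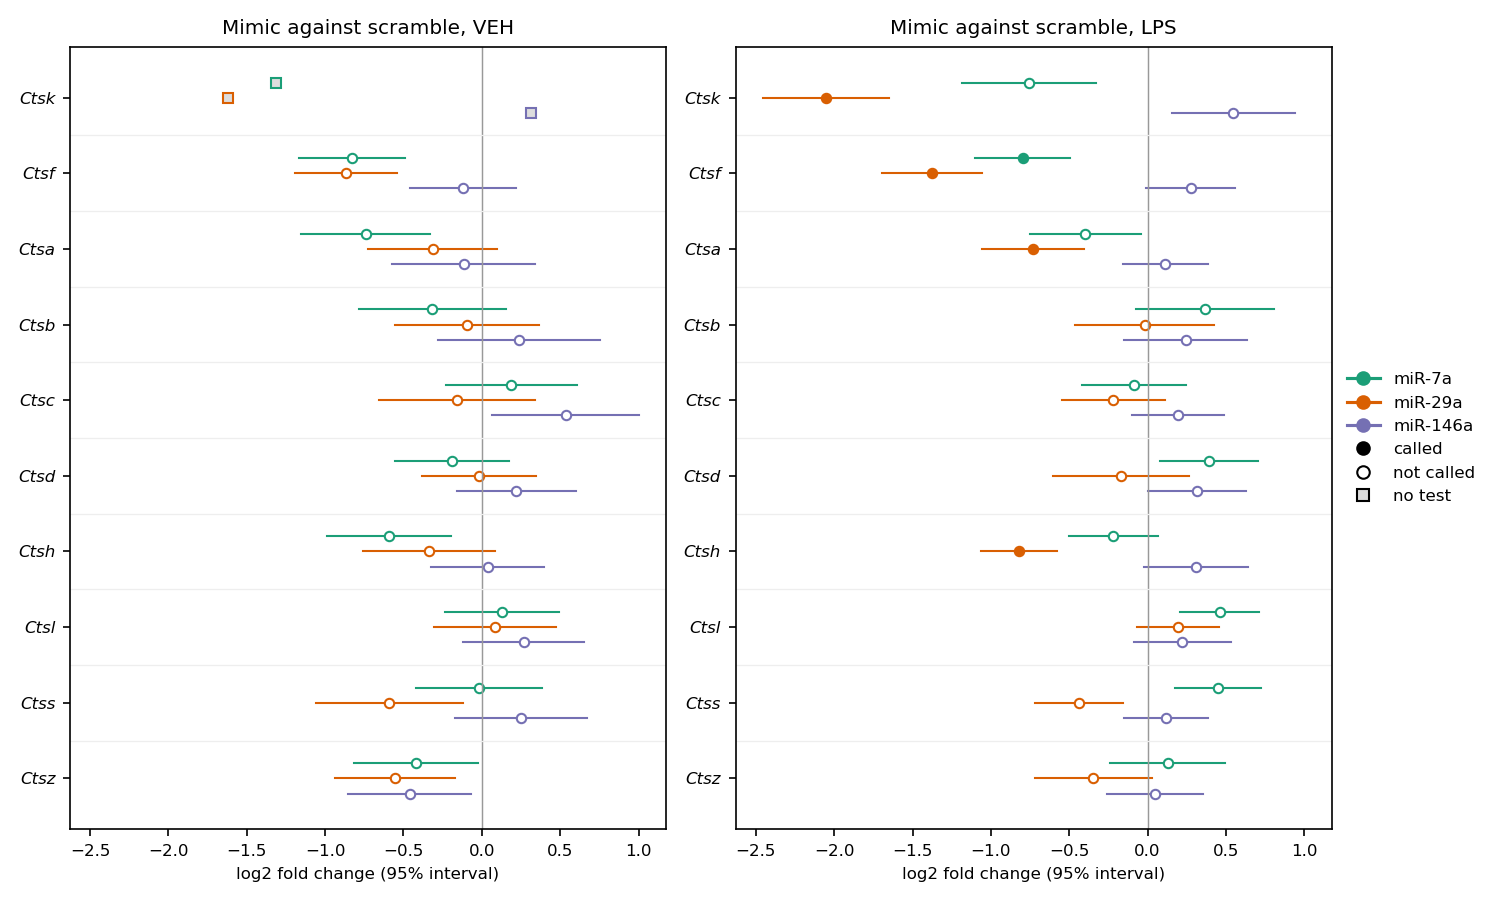
Log2 fold change of each mimic against scramble for the 10 genes under VEH (left) and LPS (right), with 95% intervals from limma; filled circles were called and the grey squares, Ctsk under VEH, are shown without a test. Ctsk and Ctsf lie left of 0 with miR-7a and miR-29a in both conditions, from -0.76 to -2.05.

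The difference between a mimic's effect under LPS and under VEH was tested as an interaction, and 0 of the 9 members other than Ctsk passed for any of the 3 mimics. Of all genes 0.0085% passed for miR-7a, 0.0168% for miR-29a and 0% for miR-146a, and 0 members passed with the replicate block or limma-trend. At an unadjusted p under 0.05 limma-voom gave 5, 2 and 1 of the 9 members in that order of mimics. Among all genes 746 of 11766, 760 of 11898 and 1287 of 11884 were under that cut. The miR-29a effect on Ctsf was more negative under LPS by 0.52 on the log2 scale (95% interval of the difference -0.94 to -0.10, limma adjusted p = 0.665) and that on Ctsh by 0.49 (-0.95 to -0.03, adjusted p = 0.764). The miR-7a effect was higher under LPS for 8 of the 9 members, with Ctsb at 0.78 (0.15 to 1.42, adjusted p = 0.746) and Ctsd at 0.69 (0.22 to 1.15, adjusted p = 0.575). The median difference was 0.47 for these 9 members and 0.12 for all genes, so genes in general were shifted upward too. This contrast rests on the VEH miR-7a libraries. So for none of these 9 genes was a mimic's effect shown to differ between the conditions, although more members were called under LPS.

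Set against the other mimics, miR-29a cells had the lower level wherever a member passed in these fits, which held no block. Against miR-146a under LPS, 5 members were lower, where 11.4% of all genes passed, 6.16% as lower: Ctsk (-2.63 ± 0.21, limma adjusted p = 3.65e-05), Ctsf (-1.67 ± 0.15, adjusted p = 0.000107), Ctsh (-1.15 ± 0.16, adjusted p = 0.00142), Ctsa (-0.87 ± 0.16, adjusted p = 0.00612) and Ctss (-0.58 ± 0.16, adjusted p = 0.0319). The call of Ctss was lost without miR-29a replicate 2, 3 or 4 or miR-146a replicate 1 or 3 (adjusted p up to 0.0707). The summed microglia and macrophage markers were lower too, at 3100 to 3771 CPM with miR-29a and 4082 to 5001 CPM with miR-146a, and their part in these differences was not tested. With the replicate block 8 passed, Ctsc, Ctsd and Ctsz also being lower, where 25.8% of genes were called. Against miR-146a under VEH, Ctsf (-0.78 ± 0.14, adjusted p = 0.0202) and Ctss (-0.84 ± 0.16, adjusted p = 0.0261) were lower, where 3.33% of all genes passed, 1.99% as lower. Ctsk, at -1.96, is given without a test. The call of Ctsf was lost without miR-29a or miR-146a replicate 3, and that of Ctss without miR-29a replicate 2 or 3 or miR-146a replicate 1 or 2 (adjusted p up to 0.0895).

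Against miR-7a under LPS, Ctsk (-1.30 ± 0.21, limma adjusted p = 0.00723), Ctss (-0.89 ± 0.15, adjusted p = 0.00925) and Ctsh (-0.61 ± 0.14, adjusted p = 0.035) were lower in miR-29a cells, where 3.86% of all genes passed, 2.5% as lower. Ctss thus differed between these mimics with groups that did not overlap, at 424 to 592 CPM against 841 to 1143 CPM. The call of Ctsh was kept in 1 of 8 fits without 1 library, the one without miR-7a replicate 1 (adjusted p = 0.0316). Ctsf, at 27.9 to 38.8 CPM against 43.6 to 57.5 CPM, did not overlap either, and -0.59 ± 0.16 missed the threshold (adjusted p = 0.061) but passed without that library. Against miR-7a under VEH 0 of the 9 members other than Ctsk passed, where 1.48% of all genes did, and limma-trend called 0. An unadjusted limma-voom p under 0.05 was found for 2 members and for 1932 of 10891 genes. There Ctsf differed by -0.04 (95% interval -0.35 to 0.27), and Ctsk, without a test, by -0.33.

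Of the other 13 cathepsin-named genes, 3 were at 0 in every library and 2, Ctso and Ctse, averaged 1 CPM or more. Ctso, a little studied cysteine cathepsin, was higher with miR-29a under LPS (0.63 ± 0.14, limma adjusted p = 0.029), the opposite direction to Ctsk, and higher with LPS in miR-29a cells (0.88, adjusted p = 0.00394). Its group means lay between 11.2 and 22.4 CPM. The genes below come from lists drawn up with earlier results of these data known, and their counts are to be read beside the shares of all genes given above.

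Of 14 cathepsin inhibitors, 7 were expressed enough to be tested with LPS in scramble cells, and 1 rose and 3 fell. Cst3, cystatin C, the abundant secreted inhibitor of cysteine cathepsins, measured 930, 913, 1525 and 1257 CPM under VEH and 460, 408, 466 and 481 CPM under LPS (-1.30 ± 0.18, limma adjusted p = 0.000641). It fell with LPS in the other transfections too, by 0.61 to 1.4 on the log2 scale. Serpinb1a (-0.94, adjusted p = 0.029) and Serpinb6a (-0.90, adjusted p = 0.0314), intracellular serpins, fell. Serpina3g, a serpin that inhibits cysteine cathepsins, rose from a low level (3.5 ± 0.69, adjusted p = 0.00544), to a group mean of at most 15.8 CPM. With the mimics under LPS, 1 of 7 tested inhibitors passed for each: Serpinb1a was lower with miR-29a (-0.77, adjusted p = 0.0116), Ctla2b higher with miR-7a (0.93, adjusted p = 0.0397), and Cst7, cystatin F, lower with miR-146a (-1.07, adjusted p = 0.0332). Cst7 measured 22.2, 22.7, 33.8 and 36.7 CPM with miR-146a against 44.0, 45.0, 72.4 and 64.2 CPM in scramble, without overlap.

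Of 9 genes that deliver or activate lysosomal enzymes, 3 were lower with miR-29a under LPS and none higher. Igf2r, the large mannose 6-phosphate receptor, measured 96.6, 114, 96.9 and 110 CPM in scramble and 83.6, 75.7, 70.1 and 58.0 CPM in miR-29a libraries, without overlap (-0.53 ± 0.13, limma adjusted p = 0.0404). Gnptab, which starts the mannose 6-phosphate tag (-0.50, adjusted p = 0.041), and Lgmn, the asparagine endopeptidase that processes cathepsin precursors (-0.53, adjusted p = 0.0421), were lower as well. Under VEH 0 of 8 tested passed with miR-29a. With miR-7a under LPS Gnptg, the other subunit gene of that enzyme, was higher (0.93, adjusted p = 0.0369). Over the 8 groups the level of Gnptg was uneven, with libraries from 1.09 to 184 CPM and group means from 3.91 to 49.9 CPM. With LPS in scramble cells Nagpa, which uncovers the tag, was lower (-0.88, adjusted p = 0.038).

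Of the 2 partners of Ctsa in its lysosomal complex, Glb1, β-galactosidase, fell with LPS in scramble cells (-0.66 ± 0.14, limma adjusted p = 0.00722), miR-29a cells (-0.86, adjusted p = 0.00114) and miR-146a cells (-0.68, adjusted p = 0.0431). Neu1, neuraminidase, did not pass in any comparison. Of 7 transcription factors of lysosomal or macrophage genes, LPS lowered Tfeb (-0.87, adjusted p = 0.00836), Spi1 (-0.73, adjusted p = 0.0379) and Nfatc1 (-0.54, adjusted p = 0.0464) in scramble cells. No member of this list passed for a mimic against scramble. Tfeb, a regulator of lysosomal genes, recognises the E-box CACGTG in a wider motif. This E-box, which reads the same on both strands, was in the RefSeq promoter window (250 bases before to 50 after the start, GRCm38.p6) of Ctsa, Ctsd, Ctsf and Ctsl, 4 of the 8 members with a window, and in 7.15% of 32851 windows. In Ctsa, whose gene lies on the plus strand, it occurred at chr2:164833761-164833766 and chr2:164833778-164833783, shown here with the E-box in capitals because Ctsa holds 2 of them close together.
Ctsa, first E-box: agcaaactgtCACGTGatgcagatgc
Ctsa, second E-box: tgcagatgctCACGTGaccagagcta

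Because Ctsk is known above all from osteoclasts, 8 other genes of that cell type were followed, of which 3 were expressed enough to be tested with LPS in scramble cells. Acp5, tartrate-resistant acid phosphatase, moved apart from Ctsk. It measured 8.52, 8.15, 6.89 and 7.79 CPM in VEH scramble and 37.3, 38, 44.7 and 51.1 CPM in LPS scramble libraries, a rise of 2.45 ± 0.20 (limma adjusted p = 1.82e-05). With miR-7a it was higher under VEH, at 32.8, 22.8, 30.4 and 22.8 CPM (1.96 ± 0.23, adjusted p = 0.00661), and under LPS (1.13 ± 0.14, adjusted p = 0.00324). With miR-29a under LPS both were lower, Acp5 at 15.7, 16.1, 11.7 and 28.2 CPM (-1.36 ± 0.23, adjusted p = 0.00935). Ocstamp (-3.90, adjusted p = 3.23e-06) and Atp6v0d2 (-1.39, adjusted p = 0.0309), genes of osteoclast fusion, fell with LPS in scramble cells.

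**Figure D5:**
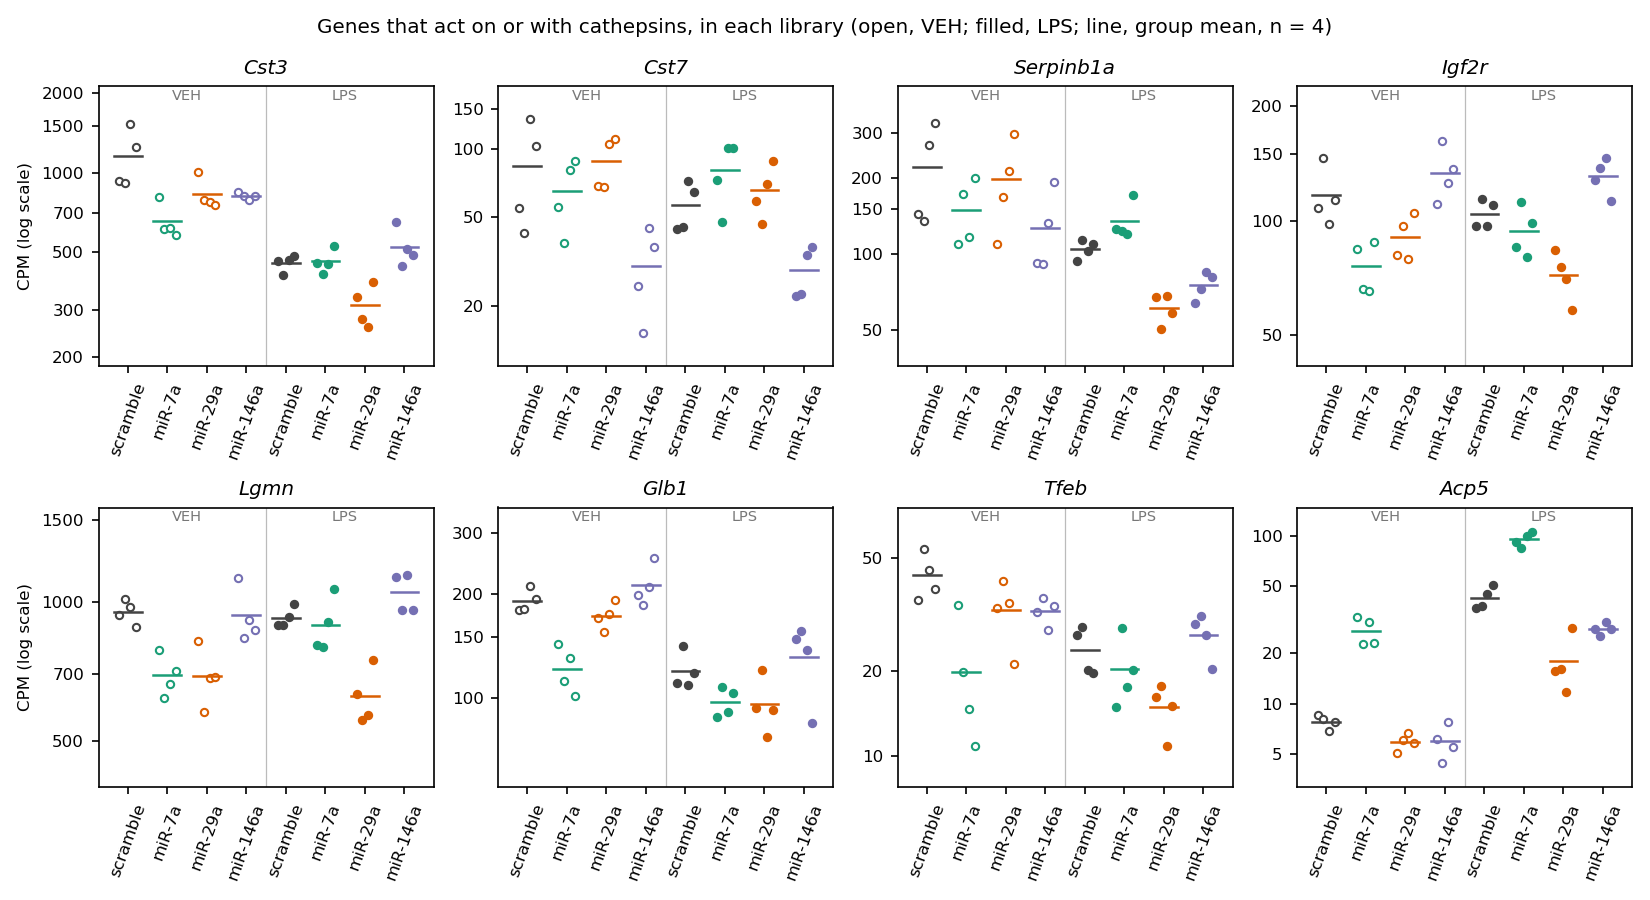
CPM in every library, on log axes that differ between panels, of 8 genes from the lists above, chosen for the plot after their values were seen. Open points are VEH, filled points LPS and lines group means, n = 4; Cst3 is lower in the LPS groups and Acp5 is highest with miR-7a, at 91.4, 83.8, 99.7 and 105 CPM under LPS.

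Over the 8 group means of log2 CPM, the 5 genes outside the family whose pattern was most like that of Ctsk, of 13191 compared, were Narf (Pearson r = 0.973), Igf2r (0.973), Ankrd52 (0.967), Ctnnb1 (0.966) and Mpzl1 (0.952). These are 8 points that share 1 normalization, and r is a description. All 5 had their lowest mean in LPS miR-29a cells and their highest with miR-146a, but their means spanned 0.69 to 1.24 on the log2 scale, and Igf2r had 71.9 ± 10.7 CPM in LPS miR-29a and 134 ± 21.7 CPM in VEH miR-146a cells (SD, n = 4). Within the family Ctsa (0.860) and Ctsh (0.833) were most like Ctsk and Ctsl least (0.163). Ctss, whose gene begins 17.4 kb after the end of Ctsk on the plus strand of chromosome 3, had an r of 0.613.

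Several members share their locus, and reads there can be assigned to either gene where strand was not used. On GRCm38 Ctsk lies at chr3:95499256-95509362, Ctsf at chr19:4855130-4860918 and Ctsh at chr9:90054152-90076089, with no other annotated gene overlapping them. Ctsa (chr2:164832873-164841032) overlaps Neurl2 and Pltp, Ctsb (chr14:63122462-63145923) Fdft1 and Ctsz (chr2:174427493-174439039) Nelfcd, each on the opposite strand. Ctsd (chr7:142375911-142388038) overlaps Gm49369 on its own strand. Ctsc (chr7:88278085-88310888) overlaps Gm26522 and Ctsl (chr13:64359337-64370890) Gm47123, both noncoding and opposite, and Ctsl and Ctss (chr3:95526786-95556403) each hold a processed pseudogene. Whether the counting used strand is not given in the sources used here.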

How the data were processed

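RNA sequencing libraries of BV-2 cells were prepared by the authors with a total RNA kit after ribosomal RNA depletion and, per the methods, aligned and quantified on GRCm38 with an nf-core workflow. The submitters' processing notes name limma and edgeR. The deposited table holds estimated counts per gene printed without their decimal mark, so its values were treated as a score and no count model was run. Each mark was restored from the gene's level in the other libraries and the last digits. Of 590874 values above 0, 28.5% were given decimals and 0.986% had a posterior under 0.9. A fit left out each gene that had such a value in any of its libraries. Of the 320 values of the members 65 were given decimals, with a lowest posterior of 0.949, and 0 changed when last digits were ignored. Restoration and tests were tested on simulated data.

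The 8 groups were taken from the labels. Genes needed 10 counts in the median library in 4 libraries. limma 3.58.1 (R 4.3.3) with TMM factors by own code was run, with voom weights, which the methods do not name, on the libraries of each of 14 pairwise comparisons and of 3 interactions, with Benjamini-Hochberg adjustment over all genes tested. Members and lists were chosen with earlier results of these data known. The named genes are all members, other family members above the filter, listed genes that were called (at most 4 per list and comparison) and the 5 genes most like Ctsk. A floor of 3 counts is 0.146 to 2.54 CPM, for counting error only.

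Same-numbered libraries were taken as paired where each of the 4 pairs' deviations correlated above 0.1. This held for LPS in scramble (0.123 to 0.262) and miR-29a cells (0.130 to 0.272), miR-29a under VEH (0.101 to 0.370), miR-7a (0.212 to 0.432), miR-29a (0.261 to 0.417) and miR-146a (0.136 to 0.415) under LPS, and miR-29a against miR-146a under LPS (0.116 to 0.410). Alternatives were other size factors, filters, weights, samples in the fit, restorations and thresholds, the replicate block, each library left out and, added after seeing the data, structural RNA left out.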

Additional observations from a re-analysis of the deposited data

Results flagged for a closer look

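Of the 80 sets of 4 libraries formed by the 10 cathepsin genes and the 8 groups, 4 held a library whose gap to the nearest of the others was large for the range of its group, where chance marks about 1 in 20. In LPS miR-7a cells Ctsh was at 267 CPM in replicate 4 and at 197 to 198 CPM in the other 3. In LPS scramble cells Ctsb was at 1845 CPM in replicate 1 and at 2880 to 2979 CPM in the others. In LPS miR-146a cells Ctsb was again lowest in replicate 1, at 2460 CPM against 3221 to 3349 CPM. In VEH miR-7a cells Ctsf was at 141 CPM in replicate 1, the library low in structural RNA, and at 102 to 108 CPM in the other 3, and its comparison with scramble passed the threshold without that library. No other result of the report met a rule for a closer look.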

How the results depend on the processing

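Counts of members here include Ctsk also where its values chose the family and support nothing. Over 890 refits of a member's log2 fold change, 809 kept the direction and the side of the threshold, 54 lost the call, 22 gained it and 5 changed sign. LPS against VEH in miR-29a and in miR-146a cells and miR-29a against scramble under LPS kept their counts of members within 1.5 times in the alternatives other than the block. With limma-trend, LPS in miR-7a cells gave 1 member in place of 3 and miR-29a under VEH 0 in place of 1. For miR-7a under VEH, with 0 members, 1 passed with a stricter filter, limma-trend, a posterior of 0.99 or structural RNA left out, 2 with decimal marks from the level alone, and 3 with all 8 groups in 1 fit. All groups in 1 fit also gave 2 members for miR-29a and 1 for miR-146a under VEH, 3 for miR-7a under LPS and, for miR-29a against miR-7a, 1 under VEH and 5 under LPS. miR-7a under LPS gave 3 members with no filter and 2 with a posterior of 0.99.

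With the replicate block, in the comparisons taken as paired, 2 members passed for miR-29a under VEH, 7 for miR-7a and 2 for miR-146a under LPS, and 8 for miR-29a against miR-146a under LPS. In the other comparisons the lowest correlation of a pair was -0.0741 to 0.0724, below the cut of 0.1. The mean over the 4 pairs was 0.0983 to 0.246 there, so missing the cut does not show that these libraries are unpaired. In them the block gave 3 members for miR-7a (2.67% of genes) and 1, Ctsc (higher), for miR-146a (6.96%) under VEH. It gave 2 for miR-29a against miR-7a (9.97%) and 6 for miR-29a against miR-146a (5.87%) under VEH. It gave 7 for miR-29a against miR-7a under LPS (9.53%) and 4 for LPS in miR-7a cells (14.9%). It changed no interaction call of a member.

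Leaving out 1 library gave 1 to 5 members for LPS in scramble cells, 1 to 4 in miR-7a cells, 0 to 2 for miR-7a, 0 to 1 for miR-29a and 0 to 1 for miR-146a under VEH, 0 to 1 for miR-7a under LPS, 0 to 1 for miR-29a against miR-7a and 1 to 4 against miR-146a under VEH. The sign changes were small: Ctsk with LPS in miR-146a cells ranged from -0.274 to 0.0647 (highest without VEH miR-146a replicate 2). Ctsf in miR-29a against miR-7a under VEH ranged from -0.0977 to 0.0460 without 1 library and was 0.17 with a posterior of 0.99. Ctsf in the miR-7a interaction was -0.0133 without structural RNA. The causes were not tested. Ctsk had 8 to 130 counts in VEH miR-7a libraries.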
